A study of Mus musculus with 12 samples.

Results

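The genes described here are 40 genes of mitosis, measured by RNA sequencing in mouse bone-marrow-derived macrophages that were wild type (WT) or labelled as lacking the ubiquitin ligases Cbl, Cbl-b or both. They were taken as the rows of a count table whose Ensembl identifiers map to 40 symbols of G2/M kinases, cyclins, kinetochore proteins and spindle proteins, a rule on names that reads no measured value. All 40 were among the 15555 genes of the table, and all 40 passed a filter on low counts that kept 12671 genes for testing. The 12 libraries form 4 groups of 3, labelled WT, Cbl-/-, Cbl-b-/- and DKO, for the double knockout. In every group marrow cells were cultured to day 9 in uncoated plates with L-cell supernatant, which supplies the growth factor CSF-1, and RNA was taken from the adherent cells. The labels give genotypes only, with no allele, strain, sex or age of the mice, and they mention an equimolar pooling of RNA but not what was pooled. Separate animals are not stated as the source of the replicates, and the p-values therefore reflect the spread among these libraries alone, which may be technical.

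Mitosis begins when cyclin-dependent kinase 1 (Cdk1), bound to cyclin A or B, phosphorylates its targets, and it ends when the anaphase-promoting complex marks those cyclins for destruction. Between these steps a spindle of microtubules binds the kinetochores of each chromosome, a checkpoint holds the cell until all of them are attached, and a midzone of overlapping microtubules guides cytokinesis. Most of these genes are transcribed in G2 and M phase, so that their RNA in a culture follows the cells then dividing, and in bone marrow cultures division is driven by CSF-1 through its receptor, a tyrosine kinase on which Cbl proteins act as ubiquitin ligases. In bulk RNA, fewer cells in mitosis and less RNA per mitotic cell cannot be told apart.

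Library totals ran from 21048103 to 43946503 counts, and levels are given as CPM, the count scaled to library size with TMM factors. The 12 macrophage markers listed summed to 17837 to 23767 CPM in all 12 libraries, and none was at 0. In WT, Cbl itself had 140.2 ± 3.4 CPM and in Cbl-/- it had 51.5 ± 2.3 (SD, n = 3). Its level was 139 ± 3.0 CPM under the label Cbl-b-/- and 37.6 ± 3.1 under DKO. In WT, Cblb, the gene of Cbl-b, had 59.4 ± 3.5 CPM and in Cbl-/- it had 68.5 ± 0.69. Its level was 52.8 ± 2.9 CPM under the label Cbl-b-/- and 71.7 ± 3.2 under DKO. The Cblb counts thus go against the labels Cbl-b-/- and DKO, although an allele that spares the transcript would not show in whole-gene counts, and both groups are named throughout by their label alone. The library DKO 3 stood apart from its partners. The chi-square statistic per degree of freedom between replicates was 39.7 and 48.9 for its pairs with DKO 1 and DKO 2, against 3.58 to 10.8 for the other 10 pairs, and the counts for DKO are given with and without it. Mitochondrial genes took 2.35% and 2.18% of the counts in DKO 1 and DKO 2, 3.21% in DKO 3 and 3.10% to 3.56% in WT, and the part of this difference in the DKO results was not tested.

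All 40 genes were well measured. Per kilobase of exon, the WT levels ran from 6.29 ± 0.384 CPM for Cenpf to 70.6 ± 0.49 CPM for Mki67 (SD, n = 3), and Top2a (63.2), Ccna2 (55.5), Ccnb2 (53.03) and Incenp (45.8) followed Mki67 in that order. Mki67 encodes the surface protein of mitotic chromosomes that is used as the proliferation marker Ki-67. On the CPM scale, the sum over the 40 genes ran from 5143 to 5257 over the WT libraries and from 6400 to 6477 over Cbl-/-, while the label Cbl-b-/- gave 5341 to 5526 and the label DKO 4922 to 5669. Each of the 3 Cbl-/- libraries lay above each of the other 9. The groups were not equally tight. The median coefficient of variation over the members stood at 2.35% for WT, 3.05% for Cbl-/-, 3.74% for Cbl-b-/- and 7.68% for DKO, where Ndc80 varied the most at 27.1%.

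**Figure D1:**
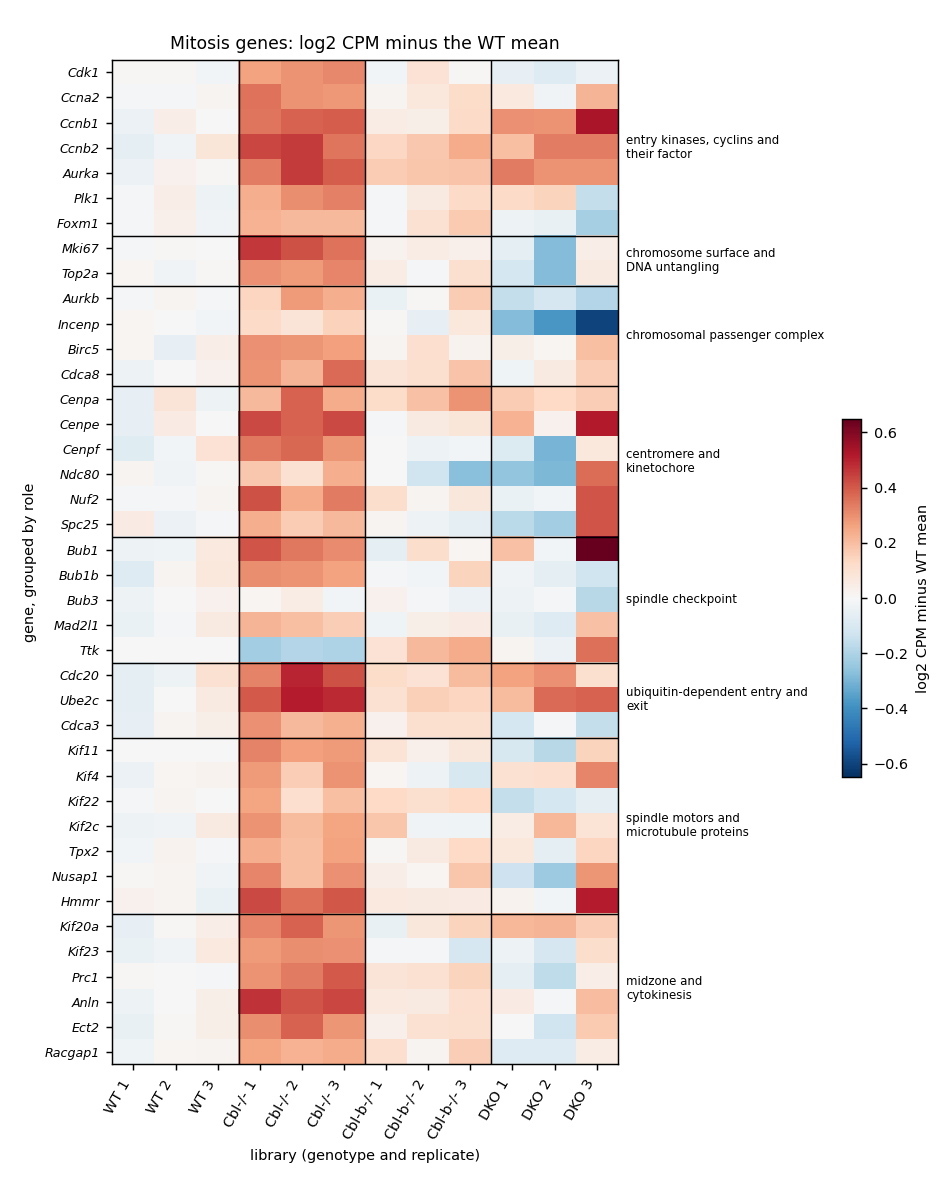
Log2 CPM of each of the 40 mitosis genes in each of the 12 libraries, minus the mean of the 3 WT libraries (colour scale, red above and blue below), with genes in rows grouped by role and libraries in columns grouped by genotype label. The 3 Cbl-/- columns are red for 38 genes and blue for Ttk, with Bub3 near 0, and the DKO 3 column differs from DKO 1 and DKO 2.

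Promoters are shown because the members are a set known for shared control: in mammals, G2/M genes carry a cell cycle genes homology region (CHR, with the core TTTGAA or its variant with an A in place of the G, TTTAAA) bound by the MuvB complex, often beside CCAAT boxes bound by NF-Y. RefSeq windows of 250 bases before to 50 bases after the transcription start (build GRCm38.p6) were matched by symbol for 34 of the 40 genes, and the other 6 (Ccna2, Kif20a, Aurkb, Tpx2, Foxm1 and Incenp) are named only. On either strand, TTTGAA was found for 27 of the 34 genes (79.4%), against 14.7% of the 9795 tested genes with a window and 17.9% of all 32851 windows. In 25 of the 27 it lay within 50 bases of the start. CCAAT was also found for 27 of 34 (79.4%), against 43.1% of the tested genes. Both together were found for 24 (70.6%), against 7.30%. TTTAAA, which reads the same on both strands, was found for 9 genes (26.5%, against 10.8% of tested genes), and GCGGGAA, the core of an E2F site, for 0 of 34, against 9.95% of tested genes. None of these 4 motifs contains another. A match is a description of these letters and not of a bound site.

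The windows below run 5′ to 3′ on the strand of the gene, from 150 bases before to 30 bases after the start, with both CHR cores and CCAAT in capitals on either strand (on the other strand TTTGAA reads TTCAAA, and CCAAT there is read as ATTGG). They are those of Ccnb1 (chr13:100786457-100786636, minus strand), Ccnb2 (chr9:70421525-70421704, minus), Cdc20 (chr4:118437314-118437493, minus) and Ube2c (chr2:164769779-164769958, plus), which were higher both in Cbl-/- and in libraries labelled DKO, of Mki67 (chr7:135716350-135716529, minus), which was higher in Cbl-/- and not past the threshold in DKO, and of Ttk (chr9:83834539-83834718, plus), which lay lower in every Cbl-/- library.
Ccnb1: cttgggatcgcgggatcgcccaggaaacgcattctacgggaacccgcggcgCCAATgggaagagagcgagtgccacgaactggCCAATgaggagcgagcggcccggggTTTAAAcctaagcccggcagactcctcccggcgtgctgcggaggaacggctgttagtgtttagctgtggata
Ccnb2: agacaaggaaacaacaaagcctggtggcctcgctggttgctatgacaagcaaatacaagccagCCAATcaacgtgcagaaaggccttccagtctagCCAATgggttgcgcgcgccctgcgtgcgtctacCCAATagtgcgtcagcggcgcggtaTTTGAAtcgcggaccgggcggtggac
Cdc20: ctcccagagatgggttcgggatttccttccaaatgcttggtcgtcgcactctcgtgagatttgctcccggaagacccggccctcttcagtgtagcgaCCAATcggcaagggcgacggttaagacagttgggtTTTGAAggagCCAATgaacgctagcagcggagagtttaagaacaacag
Ube2c: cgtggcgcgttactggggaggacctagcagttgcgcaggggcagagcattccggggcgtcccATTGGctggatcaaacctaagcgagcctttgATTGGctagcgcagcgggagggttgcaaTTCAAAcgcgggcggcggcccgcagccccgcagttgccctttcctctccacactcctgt
Mki67: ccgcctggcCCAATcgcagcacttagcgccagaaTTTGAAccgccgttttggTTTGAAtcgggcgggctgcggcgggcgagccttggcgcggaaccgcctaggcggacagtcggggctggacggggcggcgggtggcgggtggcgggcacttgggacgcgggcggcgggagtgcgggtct
Ttk: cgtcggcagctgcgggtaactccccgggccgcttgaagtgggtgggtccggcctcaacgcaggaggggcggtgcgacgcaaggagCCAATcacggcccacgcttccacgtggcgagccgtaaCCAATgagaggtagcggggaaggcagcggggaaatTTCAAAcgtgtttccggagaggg
Of these 6, Ccnb1 had the TTTAAA variant, and the other 5 had TTTGAA. All 6 had CCAAT in the longer window.

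In Cbl-/- macrophages, 32 of the 40 mitosis genes were higher than in WT, 0 were lower and 8 did not pass the test. Calls use the quasi-likelihood F test of edgeR, adjusted by the Benjamini-Hochberg method for 12671 genes, at an adjusted p under 0.05, as does every adjusted p below unless another fit is named, whose adjustment is over the genes tested in that fit. Over all genes tested, 9.87% were called in this comparison, 5.68% higher and 4.19% lower. The increases were small. The median log2 fold change was 0.29 over the members, a 1.22-fold difference, and -0.01 over all genes tested, and the members ran from -0.21 for Ttk to 0.47 for Ube2c. Groups did not overlap for 39 genes: 38 had all 3 Cbl-/- libraries above all 3 WT libraries, which 19.0% of all genes did, and 1 (Ttk) had them all below, as 18.6% did. Without the library WT 1 the count was 19, all of them higher, in a fit that called 5.7% of all genes. The 18 genes called in every alternative tried were Cdk1, Ccna2, Ccnb1, Ccnb2, Aurka, Mki67, Top2a, Birc5, Cdca8, Cenpe, Bub1b, Cdc20, Ube2c, Kif20a, Kif23, Prc1, Anln and Ect2. With only the Cbl-/- and WT libraries in the fit, where 22.5% of 12232 genes were called, 38 members passed as higher and Ttk as lower, and Bub3 alone did not pass. Across the 40 genes the fold change had a Pearson r of 0.05 with the GC content of the transcript and 0.03 with exon length.

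**Figure D2:**
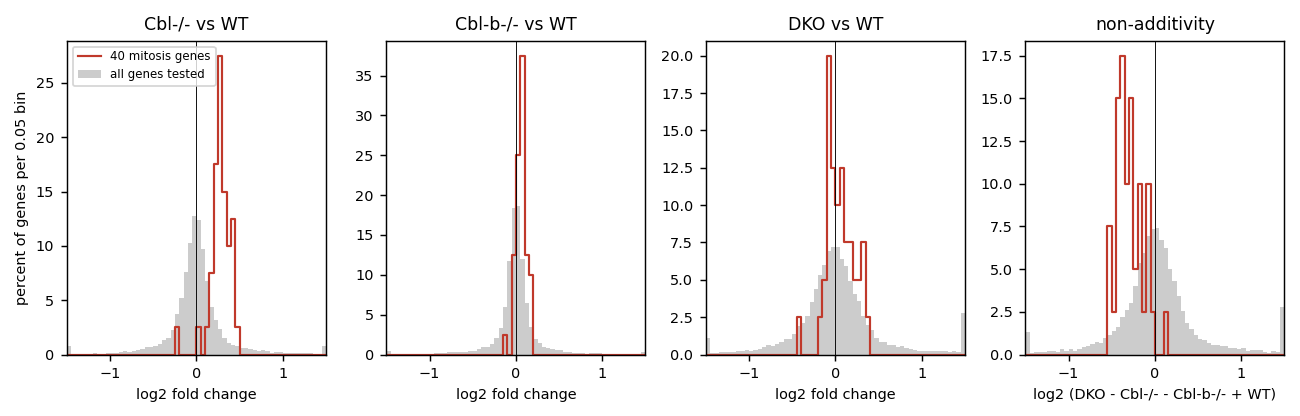
Distribution of log2 differences over all 12671 genes tested (grey bars) and over the 40 mitosis genes (red line), as the percent of each set in bins of 0.05, for Cbl-/-, Cbl-b-/- and DKO against WT and for the contrast of WT plus DKO minus both singly labelled groups. The mitosis genes lie to the right of 0 in Cbl-/- (median 0.29) and to the left in the last panel (median -0.30), while the grey bars centre on 0 in each.

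All 7 genes of mitotic entry were higher in Cbl-/-. Cdk1 (ENSMUSG00000019942, chromosome 10, 69335146 to 69352938), the kinase that drives entry into mitosis, had 122, 122 and 119.6 CPM in WT, 145, 148 and 150.2 in Cbl-/-, 119.7, 129 and 122 in libraries labelled Cbl-b-/- and 116, 114 and 118 in those labelled DKO. Only the Cbl-/- libraries stood clear above WT (log2 fold change 0.29, SE 0.05, adjusted p = 0.00096), and those labelled DKO lay just below it. Ccna2 (ENSMUSG00000027715, chromosome 3, 36564865 to 36572150), cyclin A2, a partner of Cdk1 in late S and G2 phase, had 225, 225 and 229.8 CPM in WT, 289, 278 and 276 in Cbl-/-, 229, 237 and 246 in libraries labelled Cbl-b-/- and 237, 223 and 264 in those labelled DKO. It was higher in Cbl-/- (log2 fold change 0.31, SE 0.06, adjusted p = 0.0027), while the libraries labelled DKO overlapped WT. Ccnb1 (ENSMUSG00000041431, chromosome 13, 100778650 to 100786570), cyclin B1, had 112, 118 and 114 CPM in WT, 146, 149.7 and 151 in Cbl-/-, 119, 118 and 125 in libraries labelled Cbl-b-/- and 141, 141 and 166 in those labelled DKO. On average the libraries labelled DKO were as high as Cbl-/- (0.38 in Cbl-/- and 0.38 in DKO on the log2 scale, adjusted p = 8e-04 and 2e-04). DKO 1 and DKO 2, however, lay below every Cbl-/- library. Without DKO 3, the log2 fold change of DKO was 0.30 against WT and -0.08 against Cbl-/- (adjusted p = 2.2e-05 and 0.17).

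The second B-type cyclin and the Aurora A kinase were higher too. Ccnb2 (ENSMUSG00000032218, chromosome 9, 70407692 to 70421547), cyclin B2, had 78.0, 79.9 and 85.6 CPM in WT, 109.5, 111 and 103 in Cbl-/-, 88.9, 91.5 and 96.0 in libraries labelled Cbl-b-/- and 93.0, 102 and 102 in those labelled DKO, and no library of the other 3 labels overlapped WT (log2 fold change 0.41, SE 0.06, adjusted p = 0.00017 in Cbl-/-). Aurka (ENSMUSG00000027496, chromosome 2, 172356190 to 172370535), Aurora A, which matures centrosomes and activates Plk1, had 53.3, 55.7 and 55.03 CPM in WT, 68.8, 74.9 and 71.9 in Cbl-/-, 61.3, 62.0 and 62.2 in libraries labelled Cbl-b-/- and 69.0, 66.9 and 66.9 in those labelled DKO. No library of the other 3 labels reached down to WT, and Cbl-/- had the highest mean (log2 fold change 0.39, SE 0.05, adjusted p = 9.2e-05). Plk1, the Polo kinase of entry and spindle assembly, had 85.1 ± 2.37 CPM in WT and 104 ± 3.41 in Cbl-/- (SD, n = 3; log2 fold change 0.29, SE 0.07, adjusted p = 0.015). Foxm1, a transcription factor of G2/M genes and itself such a gene, had 111 ± 2.18 and 129 ± 0.745 (log2 fold change 0.22, SE 0.06, adjusted p = 0.03). Calls for Plk1 and Foxm1 were lost in some of the fits that left out a library.

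Both genes of chromosome structure were higher in Cbl-/-. Mki67 (ENSMUSG00000031004, chromosome 7, 135689784 to 135716361) had 705, 715 and 711 CPM in WT, 975, 946 and 908 in Cbl-/-, 723, 734 and 726 in libraries labelled Cbl-b-/- and 680.3, 585 and 732 in those labelled DKO, with every Cbl-/- library far above the other 9 (log2 fold change 0.41, SE 0.07, adjusted p = 0.00049). Its level in DKO 2 was the lowest of all 12 libraries. Top2a (ENSMUSG00000020914, chromosome 11, 98992943 to 99024189), topoisomerase II alpha, which untangles sister chromatids, had 575, 561 and 573 CPM in WT, 699, 689 and 709.9 in Cbl-/-, 588, 566 and 612 in libraries labelled Cbl-b-/- and 526, 468 and 593 in those labelled DKO. It too was higher in Cbl-/- (log2 fold change 0.30, SE 0.07, adjusted p = 0.009) and lowest in DKO 2.

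Of the chromosomal passenger complex, the Aurora B kinase module that corrects faulty attachments, 3 of 4 genes were higher in Cbl-/-. Birc5 (ENSMUSG00000017716, chromosome 11, 117849251 to 117855743), survivin, had 99.7, 95.3 and 102 CPM in WT, 122, 121 and 119 in Cbl-/-, 100.2, 107 and 101 in libraries labelled Cbl-b-/- and 102, 99.7 and 113 in those labelled DKO. Cdca8 (ENSMUSG00000028873, chromosome 4, 124918465 to 124939311), borealin, had 91.3, 93.4 and 95.1 CPM in WT, 114, 109 and 120.2 in Cbl-/-, 98.8, 100.4 and 106 in libraries labelled Cbl-b-/- and 91.5, 97.0 and 104 in those labelled DKO. Both were clear of WT in Cbl-/- (0.28 and 0.30 on the log2 scale, adjusted p = 0.004 and 0.0036), and Aurkb itself had a log2 fold change of 0.22 (adjusted p = 0.03). Incenp (ENSMUSG00000024660, chromosome 19, 9872296 to 9899551), the scaffold of the complex, did not pass, with 200.1, 198 and 196 CPM in WT, 216, 209.6 and 220.0 in Cbl-/-, 199, 191 and 208 in libraries labelled Cbl-b-/- and 163, 153 and 131 in those labelled DKO. Its Cbl-/- libraries lay above WT by little (log2 fold change 0.12, SE 0.07, adjusted p = 0.34), and its DKO libraries were the lowest in the set.

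Of 6 centromere and kinetochore genes, 4 were higher in Cbl-/-. Cenpe (ENSMUSG00000045328, chromosome 3, 135212537 to 135273611), a kinesin that carries chromosomes to the spindle equator, had 106, 114 and 111 CPM in WT, 148, 144 and 149 in Cbl-/-, 109.9, 115 and 116 in libraries labelled Cbl-b-/- and 129, 113 and 158 in those labelled DKO. The Cbl-/- libraries were close together and above WT (log2 fold change 0.41, SE 0.09, adjusted p = 0.0048), while DKO 3 lay far above DKO 2. Cenpf (ENSMUSG00000026605, chromosome 1, 189640606 to 189688086), a large kinetochore protein, had 91.8, 95.9 and 103 CPM in WT, 123, 126 and 118 in Cbl-/-, 96.9, 94.9 and 95.7 in libraries labelled Cbl-b-/- and 91.3, 78.7 and 101 in those labelled DKO and was higher in Cbl-/- (log2 fold change 0.33, SE 0.08, adjusted p = 0.0079). Cenpa, the histone variant that marks centromeres, and Nuf2, a subunit of the Ndc80 complex that grips microtubules, had log2 fold changes of 0.28 (adjusted p = 0.0095) and 0.33 (adjusted p = 0.03). The other subunits of that complex, Ndc80 (0.17, adjusted p = 0.53) and Spc25 (0.20, adjusted p = 0.37), did not pass, although every Cbl-/- library was above every WT library for both. In DKO 3 Ndc80 had 77.1 CPM, against 50.2 and 49.0 in its partners. With only Cbl-/- and WT fitted, both passed, with adjusted p = 0.01 for Ndc80 and 0.0023 for Spc25.

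In the fit of all 12 libraries, the spindle checkpoint was the group in which the fewest passed, 1 of 5. Bub1b (ENSMUSG00000040084, chromosome 2, 118598211 to 118641591), the BubR1 protein that inhibits Cdc20, had 92.2, 99.0 and 103 CPM in WT, 121, 119.8 and 117 in Cbl-/-, 97.4, 96.8 and 108 in libraries labelled Cbl-b-/- and 96.3, 94.1 and 89.3 in those labelled DKO and was higher in Cbl-/- (log2 fold change 0.28, SE 0.06, adjusted p = 0.0047). Bub3 (ENSMUSG00000066979, chromosome 7, 131560222 to 131571895), the partner of Bub1 and BubR1, had 119, 121 and 124 CPM in WT, 122, 125 and 119.7 in Cbl-/-, 124, 121 and 118 in libraries labelled Cbl-b-/- and 118, 120.1 and 107 in those labelled DKO. Its 4 groups overlapped (log2 fold change 0.01, SE 0.05, adjusted p = 0.93). Mad2l1 (ENSMUSG00000029910, chromosome 6, 66535390 to 66547220), the Mad2 protein that closes around Cdc20, had 98.00, 100.04 and 105 CPM in WT, 118, 115 and 113 in Cbl-/-, 99.0, 104 and 105 in libraries labelled Cbl-b-/- and 97.8, 95.2 and 115 in those labelled DKO, with Cbl-/- above WT but not past the threshold (log2 fold change 0.19, SE 0.07, adjusted p = 0.084). Bub1, the kinase that recruits the checkpoint, had 82.0, 82.3 and 87.7 CPM in WT, 112, 106 and 104 in Cbl-/-, 80.5, 90.98 and 84.8 in libraries labelled Cbl-b-/- and 95.8, 82.9 and 132 in those labelled DKO. Its Cbl-/- libraries were above WT without passing (log2 fold change 0.35, SE 0.12, adjusted p = 0.088), and DKO 3 was far above all others. With only Cbl-/- and WT fitted, where 22.5% of all genes were called, Bub1, Bub1b and Mad2l1 passed as higher (adjusted p = 2.5e-05, 0.00018 and 0.0023). Bub3 did not (adjusted p = 0.82).

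Ttk, the Mps1 kinase at the head of the checkpoint, ran the other way. Its values, given after they were seen to be the exception, were 38.1, 38.1 and 38.0 CPM in WT, 32.5, 33.3 and 33.1 in Cbl-/-, 40.6, 44.1 and 45.1 in libraries labelled Cbl-b-/- and 38.6, 37.1 and 48.7 in those labelled DKO. Every Cbl-/- library lay below every library of the other 3 labels. Against WT the log2 fold change was -0.21 (SE 0.09, adjusted p = 0.17), which did not pass in the fit of all 12 libraries and passed with adjusted p = 0.005 when only Cbl-/- and WT were fitted. WT itself was unusually tight for Ttk, with a coefficient of variation of 0.098%, the lowest of the 40 genes in WT.

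All 3 genes of ubiquitin-dependent entry and exit were higher in Cbl-/-. Ube2c (ENSMUSG00000001403, chromosome 2, 164769898 to 164778822), the E2 enzyme that works with the anaphase-promoting complex, had 107, 111 and 116 CPM in WT, 147, 159 and 156 in Cbl-/-, 119, 124 and 123 in libraries labelled Cbl-b-/- and 129, 143 and 145 in those labelled DKO. It had the largest fold of the 40, 1.38 (log2 fold change 0.47, SE 0.06, adjusted p = 4.4e-05). Cdc20 (ENSMUSG00000006398, chromosome 4, 118432901 to 118437352), the activator of that complex in metaphase, had 54.4, 55.7 and 61.0 CPM in WT, 71.3, 80.4 and 76.0 in Cbl-/-, 61.9, 60.7 and 65.8 in libraries labelled Cbl-b-/- and 68.4, 70.0 and 61.3 in those labelled DKO and was higher in Cbl-/- (log2 fold change 0.41, SE 0.07, adjusted p = 0.00073). Cdca3 (ENSMUSG00000023505, chromosome 6, 124829547 to 124833701), an F-box-like protein linked to the destruction of Wee1, had 96.1, 101 and 102 CPM in WT, 122, 115 and 117 in Cbl-/-, 102, 107 and 107 in libraries labelled Cbl-b-/- and 92.0, 99.0 and 89.5 in those labelled DKO. It was higher in Cbl-/- by less (log2 fold change 0.25, SE 0.05, adjusted p = 0.0077), and the libraries labelled DKO overlapped WT.

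Of 7 spindle motors and microtubule proteins, 6 were higher in Cbl-/-. Kif11 (ENSMUSG00000012443, chromosome 19, 37376403 to 37421859), the Eg5 kinesin that pushes the poles apart, had 156, 155 and 156 CPM in WT, 194, 187 and 188 in Cbl-/-, 165, 159 and 164 in libraries labelled Cbl-b-/- and 145, 137 and 172 in those labelled DKO, with a WT group within 1 CPM and Cbl-/- well above it (log2 fold change 0.29, SE 0.07, adjusted p = 0.011). Tpx2 (ENSMUSG00000027469, chromosome 2, 152847964 to 152895321), which activates Aurora A on microtubules, had 162, 167 and 164 CPM in WT, 193, 189 and 198 in Cbl-/-, 165, 171 and 180.1 in libraries labelled Cbl-b-/- and 173, 158 and 181 in those labelled DKO (log2 fold change 0.23, SE 0.06, adjusted p = 0.015). Kif22 (ENSMUSG00000030677, chromosome 7, 127027729 to 127042471), the chromokinesin Kid, had 53.6, 54.9 and 54.0 CPM in WT, 64.8, 58.5 and 62.0 in Cbl-/-, 59.2, 58.2 and 59.3 in libraries labelled Cbl-b-/- and 48.6, 49.9 and 52.0 in those labelled DKO and passed narrowly (log2 fold change 0.19, SE 0.06, adjusted p = 0.04). Hmmr (0.40, adjusted p = 0.018), Kif4 (0.25, adjusted p = 0.026) and Kif2c, the depolymerase MCAK (0.25, adjusted p = 0.026), were higher as well, and Nusap1 (0.27, adjusted p = 0.11) did not pass.

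All 6 genes of the midzone and of cytokinesis were higher in Cbl-/-. Prc1 (ENSMUSG00000038943, chromosome 7, 80294450 to 80316259), which bundles antiparallel microtubules, had 191, 190.3 and 188 CPM in WT, 233, 240.1 and 250.1 in Cbl-/-, 201, 203 and 210.1 in libraries labelled Cbl-b-/- and 181, 169 and 196 in those labelled DKO. Anln (ENSMUSG00000036777, chromosome 9, 22332012 to 22389188), anillin, the scaffold of the contractile ring, had 145, 149 and 152 CPM in WT, 206, 197 and 201 in Cbl-/-, 155, 155 and 160.1 in libraries labelled Cbl-b-/- and 154, 148 and 171 in those labelled DKO. Both rose clear of all other labels (0.34 and 0.44 on the log2 scale, adjusted p = 0.00065 and 5.4e-05). Racgap1 (ENSMUSG00000023015, chromosome 15, 99620496 to 99651656), a subunit of centralspindlin, had 159.8, 164 and 165 CPM in WT, 195, 191 and 193 in Cbl-/-, 176, 165 and 182 in libraries labelled Cbl-b-/- and 154, 154 and 169 in those labelled DKO and was higher (log2 fold change 0.24, SE 0.06, adjusted p = 0.0091), as were its partner kinesin Kif23 (0.29, adjusted p = 0.0044), Ect2, a cytokinesis factor (0.32, adjusted p = 0.0051), and Kif20a, the kinesin Mklp2 (0.33, adjusted p = 0.0011).

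**Figure D3:**
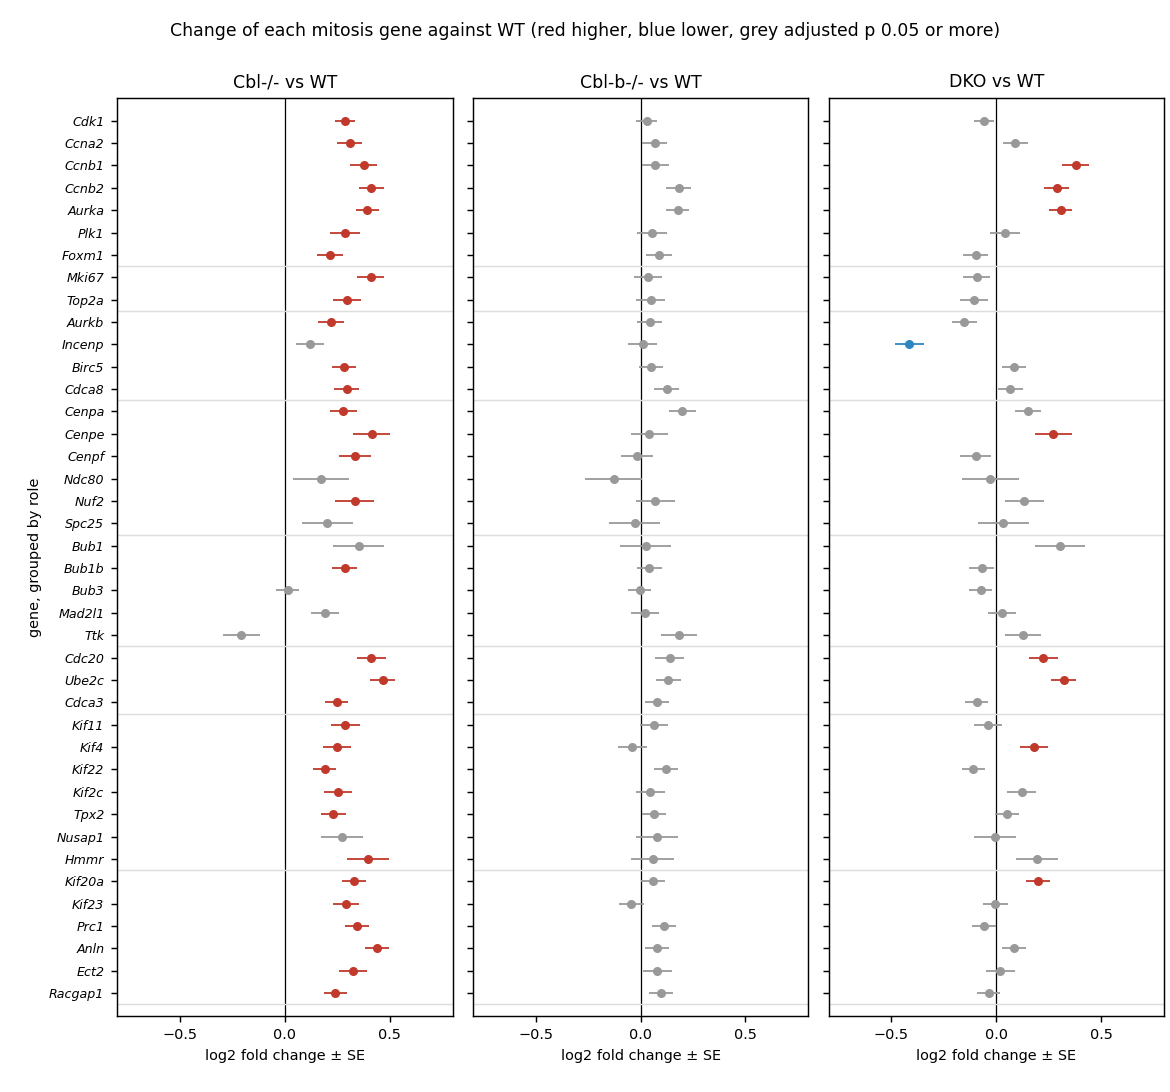
Log2 fold change against WT of each of the 40 mitosis genes in Cbl-/-, Cbl-b-/- and DKO, with bars for the standard error and colour for the call (red higher, blue lower, grey adjusted p of 0.05 or more), genes grouped by role. In Cbl-/-, 32 points are red and 39 lie right of 0. In Cbl-b-/- none is coloured. In DKO, 8 are red and 1, Incenp, is blue.

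Some markers of other myeloid cells moved with this comparison as well. The 8 monocyte markers summed to 59.7 to 66.2 CPM in WT and 85.6 to 95.8 in Cbl-/-, with Ccr2 and Vcan higher and the other 6 not past the threshold. Of those 6, F13a1, Plac8, Chil3 and Fn1 had lower means in Cbl-/-, and the list's median log2 fold change was -0.01. The granulocyte markers in the table (7 of 10 listed) summed to 41.0 to 49.4 and 55.9 to 57.5 CPM, and 3 of 6 tested were higher. Most of that sum was Mmp8, with means of 31.4 CPM in WT and 44.1 in Cbl-/-, while Csf3r and Cxcr2 had lower means in Cbl-/-. Of the macrophage markers, 1 of 12 was higher and 3 were lower, among them Lyz2 and Adgre1. Progenitor markers summed to 108 to 123 CPM in WT and 98.0 to 104.6 in Cbl-/-, with Kit higher and Sox4 at a mean of 37.0 CPM in WT and 11.4 in Cbl-/- without passing. B and plasma cell markers summed to 8.86 to 10.6 and 5.25 to 6.86 CPM, with Ighm lower. The part of these markers in the mitosis result was not tested.

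Exons of several members overlap other genes in GENCODE, and strand use in counting was not given in the sources used here. For Ccna2, Plk1, Cdca8, Cdc20, Ube2c, Kif4, Kif22, Nusap1, Kif20a and Prc1 the overlap is with a gene on the opposite strand, and for Foxm1 and Top2a on the same strand. Ccnb1, Ccnb2, Kif4 and Kif22 each have 1 annotated pseudogene named after them, and pseudogenes under other names were not searched for. The counts of these genes are uncertain to that extent.

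No mitosis gene passed the test in libraries labelled Cbl-b-/- against WT. By edgeR's quasi-likelihood test 0 of 40 were called, against 0.489% of all genes, and 6 of 40 had an unadjusted p under 0.05. DESeq2 and limma voom also called 0. The median log2 fold change was 0.06 over the members and 0.00 over all genes, 34 of 40 values were above 0, and the extremes were -0.13 for Ndc80 and 0.20 for Cenpa. All 3 libraries lay above all 3 WT libraries for 14 genes, against 7.84% of all genes, and below for 0, against 7.27%. Of all genes 0.395% were called higher and 0.0947% lower. The smallest adjusted p was that of Aurka (log2 fold change 0.18, SE 0.05, adjusted p = 0.28). The standard error of the log2 fold change reached 0.14, for Ndc80. Even a difference of several times its error, as for Aurka, did not pass after adjustment, so differences of that size could be missed with these libraries.

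In libraries labelled DKO the mitosis genes did not move together. Against WT, 8 were higher (Ccnb1, Ccnb2, Aurka, Cenpe, Cdc20, Ube2c, Kif4 and Kif20a), 1 was lower (Incenp) and 31 did not pass. Over all genes tested 35.4% were called in this comparison, 19.1% higher and 16.3% lower, so that 9 of 40 members is not above the background. Their median log2 fold change was 0.04, beside 0.00 over all genes. The groups did not overlap for 8 genes with DKO higher and for 5 with DKO lower (Cdk1, Foxm1, Aurkb, Incenp and Kif22), against 23.7% and 22.8% of all genes. Both the Cbl-/- and the DKO comparison use the same WT libraries, and their values are only set side by side.

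Of the entry genes, 3 of 7 were higher in libraries labelled DKO, where 19.1% of all genes were called higher. Ccnb1 had 112, 118 and 114 CPM in WT and 141, 141 and 166 in DKO (log2 fold change 0.38, SE 0.06, adjusted p = 2e-04). Ccnb2 (log2 fold change 0.29, SE 0.06, adjusted p = 0.0012) and Aurka (log2 fold change 0.31, SE 0.05, adjusted p = 0.00028) followed. Cdk1, the kinase these cyclins bind, had -0.06 (adjusted p = 0.38) and Plk1 0.04 (adjusted p = 0.69). In Cbl-/- the values beside these were 0.38 for Ccnb1 and 0.29 for Cdk1, and the difference between the genes was not tested.

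Of the 3 genes of ubiquitin-dependent entry and exit, 2 were higher, beside the same 19.1% of all genes. Ube2c had 107, 111 and 116 CPM in WT and 129, 143 and 145 in DKO (log2 fold change 0.32, SE 0.06, adjusted p = 0.00046), and Cdc20 was higher by less (log2 fold change 0.22, SE 0.07, adjusted p = 0.018). Cdca3 had -0.09 (adjusted p = 0.2). In the midzone group Kif20a passed (log2 fold change 0.20, SE 0.06, adjusted p = 0.012), and among the motors Kif4 did (log2 fold change 0.18, SE 0.07, adjusted p = 0.045). Incenp was the only member called lower, with 200.1, 198 and 196 CPM in WT and 163, 153 and 131 in DKO (log2 fold change -0.41, SE 0.07, adjusted p = 0.00017), and each DKO library lay below each of the other 9. Mki67 and Top2a, higher in Cbl-/-, had -0.09 (adjusted p = 0.29) and -0.11 (adjusted p = 0.25).

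**Figure D4:**
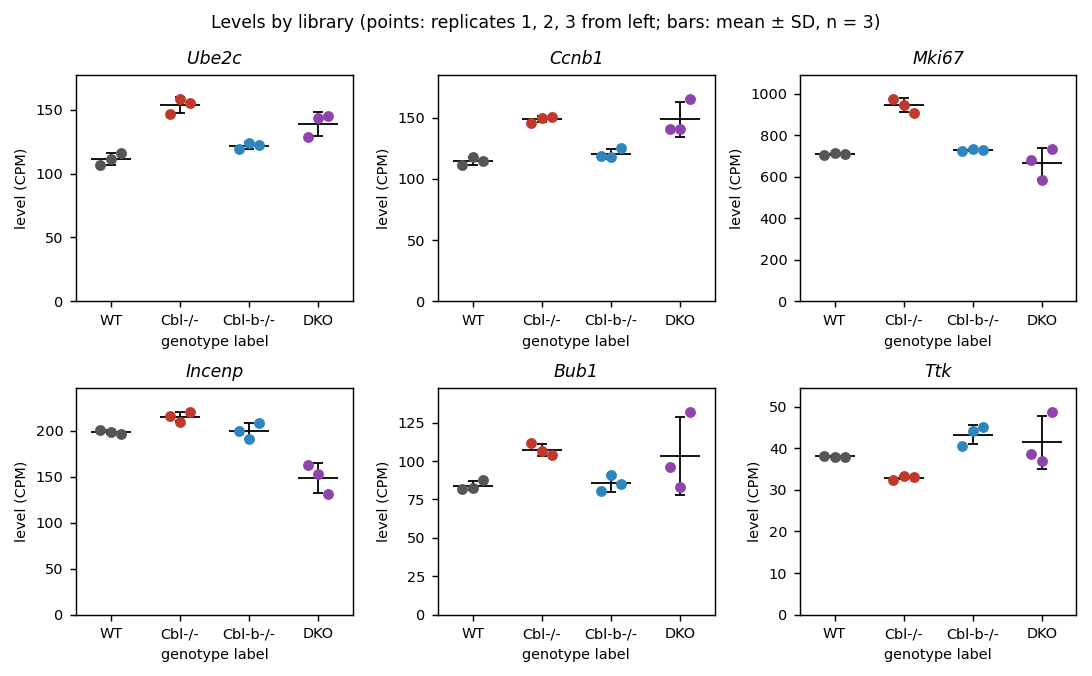
Level in CPM of Ube2c, Ccnb1, Mki67, Incenp, Bub1 and Ttk in each library (points, replicates 1, 2 and 3 from left) with the mean and SD of each group (black bars, n = 3). Ube2c and Ccnb1 are above WT in every Cbl-/- and DKO library, Mki67 is highest in Cbl-/-, Incenp is below WT in DKO, Bub1 is spread by DKO 3, and Ttk is lowest in Cbl-/-.

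Several of these values turned on the library DKO 3. Over the 40 genes, its difference from the mean of DKO 1 and DKO 2 had a Pearson r of -0.85 and a Spearman coefficient of -0.90 with the GC content of the transcript, a description over genes that share the same 3 libraries. Over the 12641 tested genes with a GC value the same measures were -0.54 and -0.67. AT-rich members such as Ndc80, Spc25 and Bub1 were high in DKO 3, and GC-rich members such as Plk1 and Incenp were low. The trend of a library's log2 level from 40% to 55% GC was -0.41 in DKO 3, 0.16 in DKO 2 and between -0.03 and 0.10 in the other 10. Without DKO 3, 15 members were called against WT, 7 higher and 8 lower, in a fit that called 37.4% of 12825 genes, so this count too is at the background. Cenpe and Kif4 were no longer called, and Plk1 (0.13, adjusted p = 0.037) passed as higher. Those newly lower were Mki67 (-0.17, adjusted p = 0.015), Top2a (-0.19, adjusted p = 0.0032), Cenpf (-0.19, adjusted p = 0.017), Ndc80 (-0.27, adjusted p = 0.0023), Spc25 (-0.20, adjusted p = 0.004), Kif11 (-0.14, adjusted p = 0.013) and Nusap1 (-0.18, adjusted p = 0.012). With a correction for GC, chosen after this pattern was seen, 15 were called, 10 higher and 5 lower, against 42.3% of all genes. With that correction and no DKO 3, 18 were called, 8 higher and 10 lower, against 38.1%. Without WT 1 the count was 5, against 26.1% of all genes. Ccnb1, Ccnb2, Aurka, Ube2c and Incenp were the 5 genes called in every alternative tried. Without DKO 3, their log2 fold changes were 0.30 (adjusted p = 2.2e-05), 0.27 (adjusted p = 0.00065), 0.32 (adjusted p = 5.1e-05), 0.29 (adjusted p = 0.00019) and -0.33 (adjusted p = 1.2e-05) in that order.

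Scaling moved this comparison too. Over all genes, 2423 were higher and 2062 lower in DKO against WT with TMM scaling, and 1773 and 2873 with scaling by total counts. Among the members 9 were called either way, 5 of them the same genes, against 35.4% of all genes with TMM and 36.7% with total counts. Under total counts Cenpe, Cdc20, Kif4 and Kif20a kept log2 fold changes above 0 without passing, and Top2a, Aurkb, Cdca3 and Kif22 passed as lower.

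Markers of several cell classes differed in libraries labelled DKO, where 19.1% of all genes were called higher and 16.3% lower. The 8 monocyte markers summed to 168 to 219 CPM there against 59.7 to 66.2 in WT, with 7 of 8 higher, and Ly6c2 rose from a mean of 0.107 to 6.04 CPM. Granulocyte markers summed to 90.6 to 117 against 41.0 to 49.4 CPM, with 4 of 6 tested higher and Mmp8 lower. Of the progenitor markers tested, 5 of 7 were higher, among them Kit (0.412 to 1.73 CPM), while Cd34 was lower and the list's sum stayed at 106 to 114 CPM against 108 to 123. Of 12 macrophage markers 6 were lower, among them Csf1r, the CSF-1 receptor gene (2207 to 1709 CPM), and 2 were higher. Dendritic cell markers summed to 30.6 to 32.9 CPM against 16.4 to 19.7 in WT, stromal and endothelial markers to 37.1 to 43.3 against 27.6 to 33.1, B and plasma cell markers to 14.8 to 16.7 against 8.86 to 10.6, and erythroid and megakaryocyte markers to 29.1 to 33.6 against 62.7 to 75.0. The 1 mast cell and basophil marker in the table had at most 0.63 CPM. The 2 T and NK cell markers in the table, of 10 listed, stayed below 1 CPM in sum in all libraries. The other 8 have no row, so their levels are not known. Rows were present for 6 of 8 dendritic, 4 of 8 B and plasma and 3 of 10 erythroid and megakaryocyte markers. Without DKO 3, the same numbers of monocyte, granulocyte, stromal and erythroid markers were called, and 7 macrophage markers were lower and 3 higher. In DKO 1 and DKO 2 the monocyte sum was 171 and 168 CPM and the granulocyte sum 94.5 and 90.6. The part of these markers in the mitosis values was not tested.

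Compared with Cbl-/-, the libraries labelled DKO had lower mitosis genes. Of the 40, 23 were lower and 1, Ttk, was higher, against 13.6% and 16.0% of all genes (29.6% in either direction). The median log2 fold change was -0.21 over the members and 0.01 over all genes. The groups did not overlap for 26 genes with DKO lower (20.2% of all genes) and for 1 with DKO higher (22.5%). Incenp (log2 fold change -0.53, SE 0.07, adjusted p = 2e-05) and Mki67 (log2 fold change -0.50, SE 0.07, adjusted p = 2.5e-05) differed the most. All 4 passenger genes, both chromosome genes, 2 of 3 ubiquitin genes, 5 of 6 midzone genes, 4 of 7 entry genes and 4 of 7 spindle genes were lower. Of the kinetochore genes only Cenpf passed (-0.43, adjusted p = 0.00037), and of the checkpoint genes only Bub1b (-0.35, adjusted p = 0.00027) and Ttk (0.33, adjusted p = 0.0079). Ccnb1 did not differ beyond its error, with 0.00 (SE 0.06, adjusted p = 0.99), and had -0.08 without DKO 3 (SE 0.04, adjusted p = 0.17). Without DKO 3, 33 were called, against 33.8% of all genes in that fit. With total counts 35 were, against 32.4% of all genes, and over all genes the split was then 1362 higher and 2747 lower against 2027 and 1720 with TMM.

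Libraries labelled DKO and Cbl-b-/- differ in their label by Cbl, as Cbl-/- and WT do. In this pair 3 members were higher in DKO (Ccnb1, Ube2c and Kif4) and 6 were lower (Foxm1, Aurkb, Incenp, Cdca3, Kif22 and Prc1), against 17.7% and 15.6% of all genes and 33.2% in either direction. The median log2 fold change was -0.01, beside 0.00 over all genes. Groups did not overlap for 5 members with DKO higher (20.9% of all genes) and for 8 with DKO lower (19.6%). Ccnb1 had log2 fold change 0.31, SE 0.06, adjusted p = 0.0013, and Incenp log2 fold change -0.42, SE 0.07, adjusted p = 0.00015. The count was 20 without DKO 3 (5 higher and 15 lower, against 35.4% of all genes), 5 without Cbl-b-/- 3 (against 27.2%), and 21 with the GC correction (against 40.4%). Only Ccnb1, Incenp and Kif22 were called in every alternative. With total counts 14 were called, against 37.5% of all genes, and the split over all genes was 1543 higher and 3207 lower against 2237 and 1974 with TMM.

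**Figure D5:**
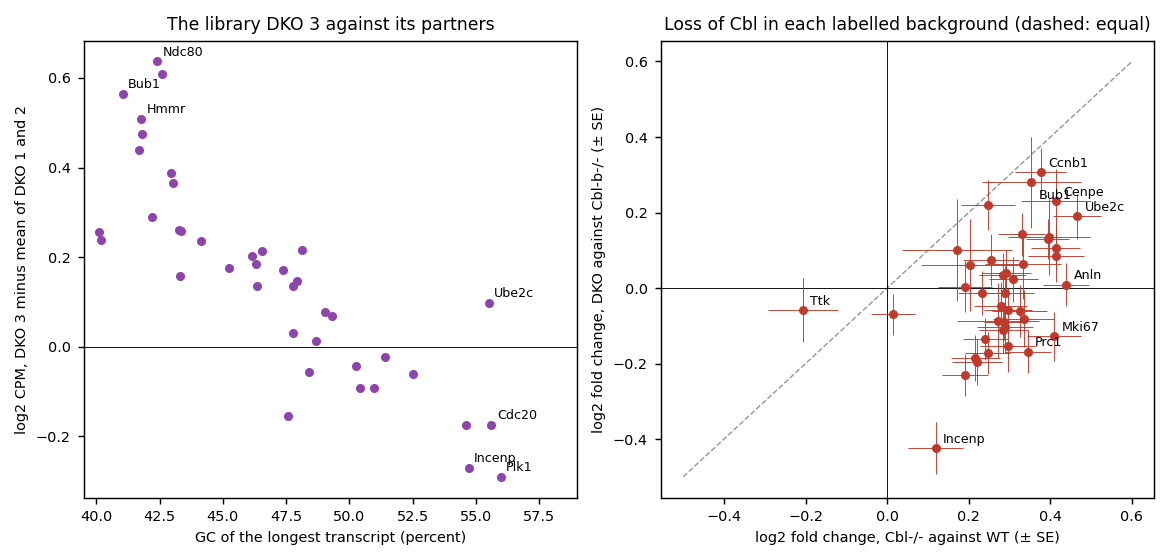
Left, log2 CPM of each mitosis gene in the library DKO 3 minus the mean of DKO 1 and DKO 2 against the GC content of its transcript in percent, which falls from left to right (Pearson r -0.85 over 40 genes). Right, log2 fold change (± SE) of DKO against Cbl-b-/- versus that of Cbl-/- against WT for the same genes, with a dashed line of equal change. Of the 40 points, 39 lie below the line.

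The libraries labelled Cbl-b-/- had lower mitosis genes than Cbl-/-, 19 of 40, with Ttk higher, against 4.12% and 3.25% of all genes (7.37% in either direction). The median was -0.23 over the members and 0.00 over all genes. The groups did not overlap for 35 genes with Cbl-b-/- lower (16.1% of all genes) and for Ttk with Cbl-b-/- higher (15.4%). Mki67 (log2 fold change -0.37, SE 0.07, adjusted p = 0.0016) and Cenpe (log2 fold change -0.37, SE 0.09, adjusted p = 0.014) were among the largest differences, and Ttk had 0.39 (SE 0.09, adjusted p = 0.0099). With only these 2 groups in the fit 34 were called, against 14.1% of all genes, and with the GC correction 32, against 12.8%. Without Cbl-/- 1, Cbl-/- 2 or Cbl-b-/- 1 the count was 11 each, against 4.13%, 4.26% and 5.74% of all genes. Without Cbl-/- 3 or Cbl-b-/- 2 it was 12, against 4.34% and 5.28%.

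Whether the loss of Cbl gave the same difference under both Cbl-b labels was tested by the contrast of WT plus DKO minus both singly labelled groups, on the log2 scale. For 23 of 40 members the DKO level was lower than the sum of the other labels' differences, and for 0 it was higher. Over all genes 15.7% were called, 7.28% lower and 8.39% higher. The median was -0.30 over the members and 0.00 over all genes. Incenp (-0.54, SE 0.10, adjusted p = 0.00097), Mki67 (-0.54, SE 0.09, adjusted p = 8e-04) and Prc1 (-0.51, SE 0.08, adjusted p = 0.00036) had the largest values. Ccnb1 (-0.07, adjusted p = 0.67), Kif4 (-0.03, adjusted p = 0.89) and Cenpe (-0.18, adjusted p = 0.35) were among the 17 that did not pass. In the fit without DKO 3, Ccnb1 (-0.15, adjusted p = 0.076) and Kif4 (-0.11, adjusted p = 0.35) again did not pass, while Cenpe did (-0.32, adjusted p = 0.0029). Without DKO 3, 34 were called, all lower, against 21.7% of all genes, and 16 members were called in every alternative. Under total counts the median of all genes moved by -0.11 and that of the members to -0.41, with 31 called, against 19.2% of all genes. The split over all genes went from 1063 higher and 922 lower to 711 and 1719.

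Other genes of the cell cycle were read from 8 lists of which no gene is among the 40. Of their 171 tested genes 39 (22.8%) were called in Cbl-/- against WT, 31 higher and 8 lower, beside 9.87% of all genes. Without the library Cbl-/- 1 the count was 24, beside 6.2% of all genes. In DKO against WT 42 (24.6%) were called, 15 higher and 27 lower, which is below the 35.4% of all genes. Without DKO 3 the DKO count was 58 (33.9%), 16 higher and 42 lower, beside 37.4% of all genes, and every related gene named below for DKO kept its call and direction. The DKO counts of single lists are therefore descriptions, to be read against 19.1% of all genes called higher and 16.3% lower. Those of Cbl-/- are to be read against 5.68% higher and 4.19% lower. Of 46 other spindle, kinase and cytokinesis genes, 18 were higher in Cbl-/- and 0 lower. Aspm, a spindle pole protein, rose from 61.6 ± 2.45 to 81.1 ± 4.04 CPM (log2 fold change 0.40, adjusted p = 0.0014), and Knstrn, the kinetochore adaptor kinastrin, from 66.8 ± 1.07 to 82.3 ± 3.31 CPM (log2 fold change 0.30, adjusted p = 0.00086). Tacc3, a spindle microtubule protein, was higher as well (log2 fold change 0.28, adjusted p = 0.0026). In DKO against WT 5 of these genes were higher and 3 lower (4 and 8 without DKO 3), among the latter Iqgap3 (-0.30, adjusted p = 0.00071) and Stil, a centriole duplication factor (-0.29, adjusted p = 0.0017).

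Of 32 other kinetochore and centromere genes, 3 passed in Cbl-/-, all higher: Kntc1 from 71.8 ± 3.03 to 89.0 ± 2.75 CPM (log2 fold change 0.31, adjusted p = 0.001), Ska2 (0.28, adjusted p = 0.0044) and Pmf1 (0.23, adjusted p = 0.037). A count of 3 in 32 is close to the 9.87% of all genes called, while the median over the 32 was 0.21. In DKO 1 was higher and 2 were lower (8 lower without DKO 3), with Hjurp, the chaperone that loads Cenpa, down from 190.2 ± 5.28 to 149 ± 12.6 CPM (log2 fold change -0.36, adjusted p = 0.00039) and Nsl1 lower too (-0.34, adjusted p = 0.0027). Of 8 condensin subunits, which compact chromosomes, Smc2 (0.45, adjusted p = 3e-04) and Ncapd2 (0.25, adjusted p = 0.0084) were higher in Cbl-/-. In DKO 1 was higher and 4 were lower (6 lower without DKO 3), among them Ncapg2 (-0.34, adjusted p = 0.00083) and Ncaph (-0.27, adjusted p = 0.0013). Of 15 core subunits of the anaphase-promoting complex 0 were called in Cbl-/-, where their median was 0.01, and 1 in DKO, Anapc5 (0.20, adjusted p = 0.0059), or 2 without DKO 3.

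Genes that act earlier in the cycle were mixed. In Cbl-/- few were called per list, but each of these short lists had a larger share called than the 9.87% of all genes. Of 14 factors of the MuvB, DREAM and activator class 3 were higher in Cbl-/-: Lin54, a MuvB subunit that binds the CHR (0.29, adjusted p = 0.0041), Mybl2, its activating partner B-Myb (0.27, adjusted p = 0.025), and E2f8 (0.22, adjusted p = 0.033). In DKO 0 were higher and 3 lower, among them E2f7, a repressor (-0.50, adjusted p = 1.7e-05), and Tfdp2 (-0.44, adjusted p = 6e-05). Of 14 G1 genes 2 were higher and 2 lower in Cbl-/-. Cdk6, a G1 kinase, rose from 200.2 ± 10.2 to 266 ± 8.23 CPM (log2 fold change 0.41, adjusted p = 0.00013) and Myc rose (log2 fold change 0.27, adjusted p = 0.0076), while Ccnd1, cyclin D1, fell from 1117 ± 18.0 to 958 ± 50.5 CPM (log2 fold change -0.22, adjusted p = 0.0095). In DKO Cdk6 rose further, from 200.2 ± 10.2 to 331 ± 19.8 CPM (log2 fold change 0.73, adjusted p = 6.9e-08), and Ccnd2 fell (-0.83, adjusted p = 1.9e-06), with 2 higher and 4 lower in all. Of 26 DNA replication genes 2 were higher and 2 lower in Cbl-/-, among them Rrm2 (0.29, adjusted p = 0.0042), Rfc3 (-0.39, adjusted p = 0.00069) and Tyms (-0.32, adjusted p = 0.0012). In DKO 0 were higher and 5 lower (8 lower without DKO 3), among them Mcm7 (-0.23, adjusted p = 0.0018) and Lig1 (-0.22, adjusted p = 0.0064).

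Of 16 inhibitors of cyclin-dependent kinases and arrest genes, 4 were lower and 1 was higher in Cbl-/-. Cdkn2b, the p15 inhibitor of Cdk4 and Cdk6, fell from 4.57 ± 0.451 to 1.26 ± 0.528 CPM (log2 fold change -1.83, adjusted p = 0.00015). Cdkn2a (-0.82, adjusted p = 0.0046) and the p53-induced gene Trp53inp1 (-0.56, adjusted p = 0.00054) fell too. In DKO 5 were higher and 6 lower. Mdm2, the ubiquitin ligase of p53, rose from 305 ± 11.6 to 422 ± 32.8 CPM (log2 fold change 0.47, adjusted p = 9.8e-06), and Cdkn2c, the p18 inhibitor, fell from 99.2 ± 2.73 to 66.6 ± 3.12 CPM (log2 fold change -0.58, adjusted p = 2e-06). In libraries labelled Cbl-b-/- 0 genes of the 8 lists were called.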

How the data were processed

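Polyadenylated RNA of 12 macrophage cultures, 3 libraries for each of 4 genotype labels, was sequenced as stranded libraries, per the labels' protocols. The authors deposited whole-number read counts per Ensembl gene in 1 table, on build GRCm38.p5 per the submitters' processing notes. The aligner, counter and strand setting were not given in the sources used here. Totals ran from 21048103 to 43946503 counts per library, every listed gene had at least 1 count in WT 1, and no row or column lacked an identity (0% of counts). Symbols and gene models came from GENCODE M21 (GRCm38), which named 15506 of 15555 genes, and promoter windows from RefSeq (GRCm38.p6).

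Counts were filtered with filterByExpr, which removed 2884 genes, scaled by TMM and fitted with edgeR 4.0.16 in R 4.3.3 (robust quasi-likelihood F test, 1 mean per genotype over all 12 libraries, Benjamini-Hochberg adjustment over 12671 genes, threshold 0.05, no minimum fold). The fit was also run on simulated counts in which 200 genes changed by more than any member did in the main fit. That run does not test how well changes of the members' size are called. CPM use TMM library sizes, log2 CPM a prior count of 2, and levels per kilobase the summed exon length. Alternatives were DESeq2 size factors, total counts, no filter, at least 5 CPM in 3 libraries, DESeq2 1.42.0, limma voom 3.58.1, only the genotypes compared, a replicate block and leaving out each library. A correction for transcript GC content, with and without DKO 3, was added after seeing the data. No 2 replicates agreed within sampling noise.

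The members, the related lists and the tests were chosen with earlier results of these data known. Values in all 12 libraries are given, per role, for the 2 members with the smallest p in Cbl-/- against WT and the most abundant one, and for members called in DKO against WT or in the non-additivity contrast (the 12 with the smallest p). From each related list up to 3 called genes are named for Cbl-/- and up to 2 for DKO. Bub1, Ttk and Ndc80 were named after their values were seen. Markers of 10 cell classes were read the same way. A planned search of protein sequences was not run.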

Additional observations from a re-analysis of the deposited data

Results flagged for a closer look

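The difference that goes with the Cbl label was not the same under both Cbl-b labels for 23 of the 40 mitosis genes, by edgeR's quasi-likelihood test of WT plus DKO minus both singly labelled groups, with adjustment over all genes tested. All 23 values, on the log2 scale, were below 0. Among the entry genes they were -0.38 for Cdk1, -0.29 for Ccna2, -0.31 for Ccnb2, -0.26 for Aurka and -0.40 for Foxm1. The chromosome genes had -0.54 for Mki67 and -0.45 for Top2a. All 4 passenger genes were among the 23, with -0.42 for Aurkb, -0.54 for Incenp, -0.25 for Birc5 and -0.36 for Cdca8. Of the kinetochore and checkpoint genes, Cenpa had -0.33, Cenpf -0.42 and Bub1b -0.40. The ubiquitin genes had -0.33 for Cdc20, -0.28 for Ube2c and -0.42 for Cdca3. Of the motors, Kif11 had -0.39 and Kif22 -0.42, and of the midzone genes Prc1 had -0.51, Anln -0.43, Ect2 -0.39 and Racgap1 -0.37. The Cblb counts went against the labels Cbl-b-/- and DKO, so the direction is tied to the labels alone. Over all genes tested 15.7% were called. Without DKO 3 the 23 genes were kept and 11 more passed, in a fit that called 21.7% of all genes. Of the 23, 16 were called in every alternative. Ccna2, Ccnb2, Aurka, Birc5, Cenpa, Cdc20 and Ube2c lost the call in at least 1, and all of these did without WT 1 or without Cbl-/- 2.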

How the results depend on the processing

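No mitosis gene was called in Cbl-b-/- against WT under any alternative run. Leaving out 1 library gave 19 to 27 called members for Cbl-/- against WT (median log2 fold change 0.29 to 0.30), 5 to 15 for DKO against WT (median -0.03 to 0.09), 20 to 33 for DKO against Cbl-/-, 5 to 20 for DKO against Cbl-b-/-, 11 to 17 for Cbl-b-/- against Cbl-/-, 16 to 34 for the non-additivity contrast, 24 to 31 genes of the related lists for Cbl-/- against WT and 34 to 58 for DKO against WT. These fits hold fewer samples. Over all genes they called 5.7% to 7.58% for Cbl-/- against WT, 26.1% to 37.4% for DKO against WT and 22.1% to 33.8% for DKO against Cbl-/-. They called 27.2% to 35.4% for DKO against Cbl-b-/-, 4.13% to 5.74% for Cbl-b-/- against Cbl-/- and 11.2% to 21.7% for the contrast. With the GC correction, chosen after seeing the data, the counts were 15 for DKO against WT (42.3% of all genes called) and 21 for DKO against Cbl-b-/- (40.4%). They were 32 for Cbl-b-/- against Cbl-/- (12.8%) and 76 for the related lists in Cbl-/- (15.7%). With no DKO 3 as well they were 18 for DKO against WT (38.1%) and 19 for DKO against Cbl-b-/- (36.1%). With only the genotypes compared in the fit the counts were 3 for DKO against Cbl-b-/- (22.4% of all genes called), 34 for Cbl-b-/- against Cbl-/- (14.1%) and 95 for the related lists in Cbl-/- (22.5%). Scaling by total counts gave 14 for DKO against Cbl-b-/- (37.5% of all genes called), a median of 0.31 for Cbl-/- against WT and -0.41 for the non-additivity contrast. The cause of these shifts was not tested. Bub3, not called, changed sign in Cbl-/- against WT, to -0.00218 without WT 1 and -0.00229 without Cbl-/- 2, within a leave-one-out range of -0.00229 to 0.0307. Over single genes and lists, leave-one-out fits aside, 1720 values kept direction and side of the threshold, 32 lost the call, 24 gained it and 24 counts moved. In leave-one-out fits 1058 kept it, 208 lost the call, 3 gained it and 19 counts moved. Replicate numbers did not pair the libraries: correlations of same-numbered deviations ran from -0.05 to 0.05 over 18 pairs. With the replicate block, 31 members were called for Cbl-/- against WT (8.99% of all genes), 0 for Cbl-b-/- against WT (0.474%) and 8 for DKO against WT (33.8%). For DKO against Cbl-/- 24 were called (28.2%), for DKO against Cbl-b-/- 9 (31.7%), for Cbl-b-/- against Cbl-/- 19 (6.44%) and for the contrast 22 (14.3%). In promoter windows of 200 bases TTTGAA was found for 27 of 34 genes. The shares of error due to counting and to the spread between libraries were not separated.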
